A study of Mus musculus with 6 samples.

Results

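The genes described here carry out the synthesis, breakdown and sensing of eicosanoids, the signaling lipids made from arachidonic acid. The list held 10 genes, namely Ptgs1, Ptgs2, Hpgds, Ptgds, Tbxas1, Hpgd, Alox5, Alox5ap, Ltc4s and the prostaglandin E2 receptor gene Ptger4, and its members were taken as the rows of the deposited table that carry these symbols. Of the 10 genes, 9 had a row among the 15388 genes of the table, and Ptger4 was not analysed here. The 6 libraries came from the hippocampi of 3 mice (animals 201, 207 and 208) of the genotype Cx3cr1-Cre/Ert2+; NuTRAP+, with an Input and a Positive library from each animal. All animals carried both alleles and received tamoxifen, which the methods place at about 3 months of age, with tissue taken some weeks later. By the methods the Cre came from one parent, so the mice had one copy of it, in both fractions alike, and this Cre line is known as an insertion at the Cx3cr1 locus. Tamoxifen lets the Cre switch on NuTRAP, which puts EGFP on the ribosomes of the recombined cells. Input was RNA from the cleared homogenate, and Positive was the RNA that came down with anti-GFP beads in translating ribosome affinity purification (TRAP). The Cx3cr1 promoter is active in microglia and in the macrophages at the borders of the brain, so both cell types can carry the tag. The question addressed was which of these transcripts were richer on the tagged ribosomes than in the whole homogenate.

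Eicosanoid synthesis starts when phospholipases free arachidonic acid from membrane lipids. Cyclooxygenases turn it into prostaglandin H2, and terminal synthases convert this intermediate into prostaglandin D2, prostaglandin E2, prostacyclin or thromboxane A2. In a separate branch, 5-lipoxygenase makes leukotriene A4 with the help of an activating membrane protein, and leukotriene C4 synthase or leukotriene A4 hydrolase completes the leukotrienes. In the brain these lipids are known for roles in sleep, fever, blood flow, pain and inflammation.

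The sequences upstream of both cyclooxygenase genes and both prostaglandin D2 synthase genes are shown because the members of each of these pairs behaved differently between the fractions. Each line gives the 250 bases before the RefSeq start site on the gene's own strand, 5′ to 3′, in the build GRCm38.p6, at chr2:36230176-36230425 (plus strand) for Ptgs1, chr1:150099781-150100030 (plus strand) for Ptgs2, chr6:65144731-65144980 (minus strand) for Hpgds and chr2:25469750-25469999 (minus strand) for Ptgds. Capitals mark the letters GAGGAAGT, a sequence recognized by PU.1, the transcription factor of the myeloid lineage.
Ptgs1: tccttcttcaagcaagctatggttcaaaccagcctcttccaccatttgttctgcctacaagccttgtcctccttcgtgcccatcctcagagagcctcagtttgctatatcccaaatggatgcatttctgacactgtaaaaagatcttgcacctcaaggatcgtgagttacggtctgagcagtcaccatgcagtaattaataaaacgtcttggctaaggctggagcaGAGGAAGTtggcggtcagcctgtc
Ptgs2: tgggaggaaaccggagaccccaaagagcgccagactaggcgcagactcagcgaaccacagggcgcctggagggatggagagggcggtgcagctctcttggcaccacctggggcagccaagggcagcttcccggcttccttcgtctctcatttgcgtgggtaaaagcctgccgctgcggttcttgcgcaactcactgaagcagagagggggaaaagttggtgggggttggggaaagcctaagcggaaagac
Hpgds: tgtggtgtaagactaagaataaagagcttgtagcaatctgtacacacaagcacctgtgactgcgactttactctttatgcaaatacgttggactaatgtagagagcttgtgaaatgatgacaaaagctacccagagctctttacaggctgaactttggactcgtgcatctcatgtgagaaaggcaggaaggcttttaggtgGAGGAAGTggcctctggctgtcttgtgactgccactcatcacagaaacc
Ptgds: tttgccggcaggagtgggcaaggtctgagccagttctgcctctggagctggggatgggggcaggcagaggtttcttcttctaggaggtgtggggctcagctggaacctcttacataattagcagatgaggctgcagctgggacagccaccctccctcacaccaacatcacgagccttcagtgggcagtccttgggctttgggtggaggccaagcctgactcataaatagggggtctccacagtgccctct

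The search covered both strands of 300 bases for each gene, from 250 before to 50 after the start site. RefSeq gave such a promoter for 9 of the 10 genes, and Alox5ap had no entry. GAGGAAGT was found in 2 of these 9 promoters, beginning 24 bases before the start of Ptgs1 and 49 bases before the start of Hpgds, and in 3.20% of all 32851 promoters in the same table. TATAAA, the letters of a TATA box, was found in Hpgd and Tbxas1 (13.6% of all promoters). In Tbxas1 it lay 11 and 13 bases before the start, on opposite strands. In Hpgd it lay after the RefSeq start, from base 5. CACGTG, the letters of an E-box, was found in Ptgs2 (7.15%), also after the start, from base 17. The promoter of Ptgs2 held 16 CG dinucleotides and that of Ptgs1 held 6, beside a median of 7 over all promoters. The promoters of Tbxas1, Hpgd, Alox5 and Ltc4s, genes that were also higher in Positive, held no GAGGAAGT. These matches describe letters only, and their part in the difference between the fractions was not tested. The RefSeq start of Tbxas1 lay 43582 bases inside the gene as the table spans it, and the starts of Ptgds, Hpgds and Ltc4s lay 297, 178 and 84 bases inside. That of Hpgd lay 33 bases before the gene in the table, so its TATAAA lay after the RefSeq start but before the table's start.

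Of the 9 measured genes, 7 were higher in the Positive fraction, 1 was lower, and 1 did not pass the test. Ptgs1, Hpgds, Tbxas1, Hpgd, Alox5, Alox5ap and Ltc4s were higher, by 7.0 to 21.5-fold. Ptgds, the other prostaglandin D2 synthase, was lower, at 37.9% of its Input level. Ptgs2, the inducible cyclooxygenase, gave a log2 fold change of 0.02 ± 0.20 (SE, n = 3 libraries per fraction). The calls come from edgeR's quasi-likelihood test with p-values adjusted by Benjamini-Hochberg over all genes tested and a threshold of 0.05. Over all 15343 genes tested, 24% were called higher in Positive, 22% were called lower, and 3.75% were called higher and over 5-fold. The calls over all genes were 52.2% higher, and 41.6% higher when libraries were scaled by their total counts, under which every call of the 9 genes stayed the same. All 7 genes called higher were over 5-fold, and their log2 fold changes lay at or above the 97.0 percentile of all genes. All 9 genes entered the test, 8 because both fractions passed the filter on low values and Alox5 through its Positive libraries alone, so the calls of Alox5 and the counts that include it were partly set by the filter. The median log2 fold change of the 9 genes was 4.04, and that of all genes tested was -0.01. The genes were listed with earlier results of these data known, so the counts are descriptions.

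**Figure D1:**
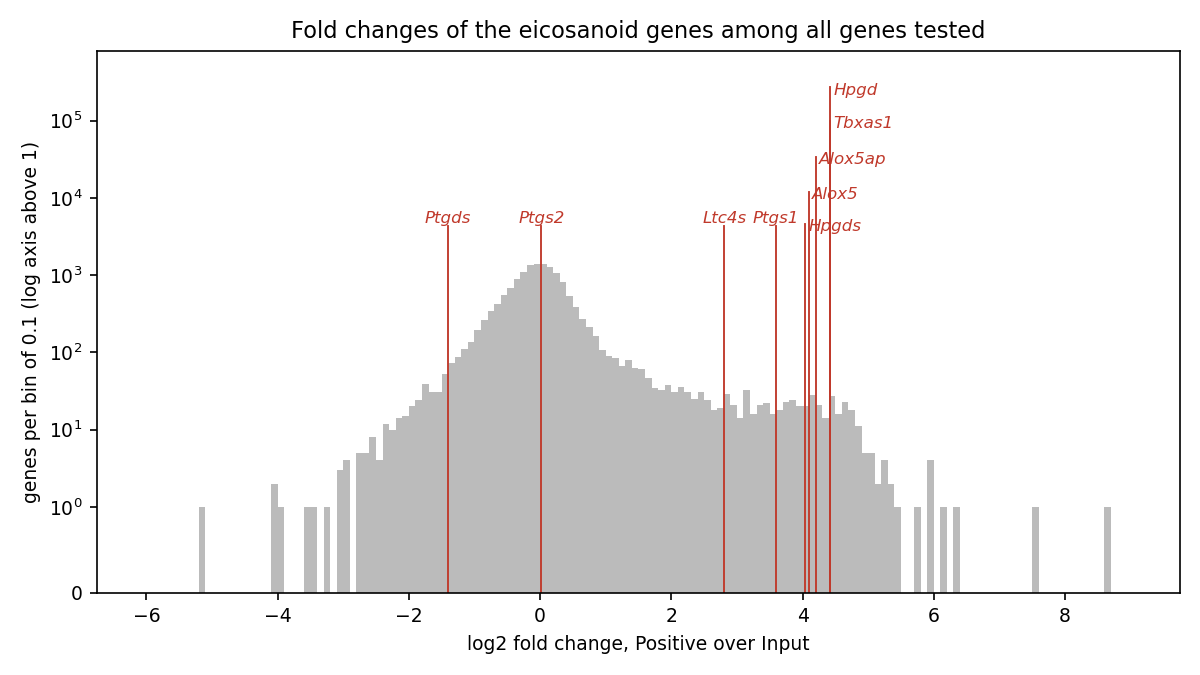
Histogram of the log2 fold change of Positive over Input for all 15343 genes tested (bins of 0.1, counts on a log axis above 1), with red lines at the 9 measured eicosanoid genes. Tbxas1 and Hpgd share a line at 4.42 and 4.43, Ptgs2 stands in the middle of the distribution at 0.02, and Ptgds stands in the lower tail at -1.40.

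Levels per library are given as scaled reads, which are the deposited raw read values divided by each library's size factor, in the order of animals 201, 207 and 208. Cyclooxygenase is the committed step of prostanoid synthesis. Ptgs1 (ENSMUSG00000047250, chr2:36230426-36252272, plus strand, mm10) codes for cyclooxygenase-1, the form that many cells make at rest. Ptgs1 had 182, 228 and 207 scaled reads in Input and 2525, 2970.0 and 1980.0 in Positive. The lowest Positive library was far above the highest Input library. The log2 fold change was 3.60 ± 0.15 (SE), or 12.1-fold with a 95% interval of 9.71 to 15.1 (adjusted p = 8.20e-10). All 3 Positive libraries lay above all 3 Input libraries for 28.9% of the genes tested.

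Ptgs2 (ENSMUSG00000032487, chr1:150100031-150108227, plus strand) codes for cyclooxygenase-2, which neurons of the hippocampus make in step with synaptic activity and which inflammatory signals induce. It had 175, 241 and 191 scaled reads in Input and 164, 181 and 271 in Positive. The fractions overlapped, and the animals did not share a direction, with log2 values of Positive over Input of -0.10, -0.41 and 0.50. The adjusted p was 0.947, and the 95% interval of the fold ran from 0.754 to 1.36. That interval lies far below the 12.1-fold of Ptgs1, and a difference within it was not detectable with these libraries. The sign of the Ptgs2 value turned with the scaling and with single libraries, reaching -0.23 without the Positive library of animal 208. Beside it, a list of immediate early genes (Fos, Arc, Egr1 and 7 others) had a median log2 fold change of -0.02. Of these 10 genes, 3 (30%) were called higher and 1 (10%) lower, beside 24% and 22% over all genes. The excitatory neuron markers had a median of 0.09, with 2 of 8 (25%) called higher, near the 24% over all genes. In animal 208, where Ptgs2 was highest in Positive, the excitatory neuron median was 0.26, against -0.03 and 0.06 in animals 201 and 207. The part of neuronal RNA in the Ptgs2 values was not tested.

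The balance between both cyclooxygenases was compared within each library, where scaling plays no part. The log2 ratio of Ptgs1 to Ptgs2 reads was 0.06, -0.08 and 0.11 in Input and 3.95, 4.03 and 2.87 in Positive, a difference of 3.59. The fractions did not overlap. The exact two-sided permutation test gave p = 0.1, the smallest value that 3 libraries against 3 allow (adjusted p = 0.133 over 4 ratios). Here and for the other ratios, this test treated the libraries as unpaired and did not use the animals. Per kilobase of exon, Ptgs1 made up 52.7 to 56.1% of the sum of both genes in Input and 94.8%, 95.1% and 89.6% in Positive.

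**Figure D2:**
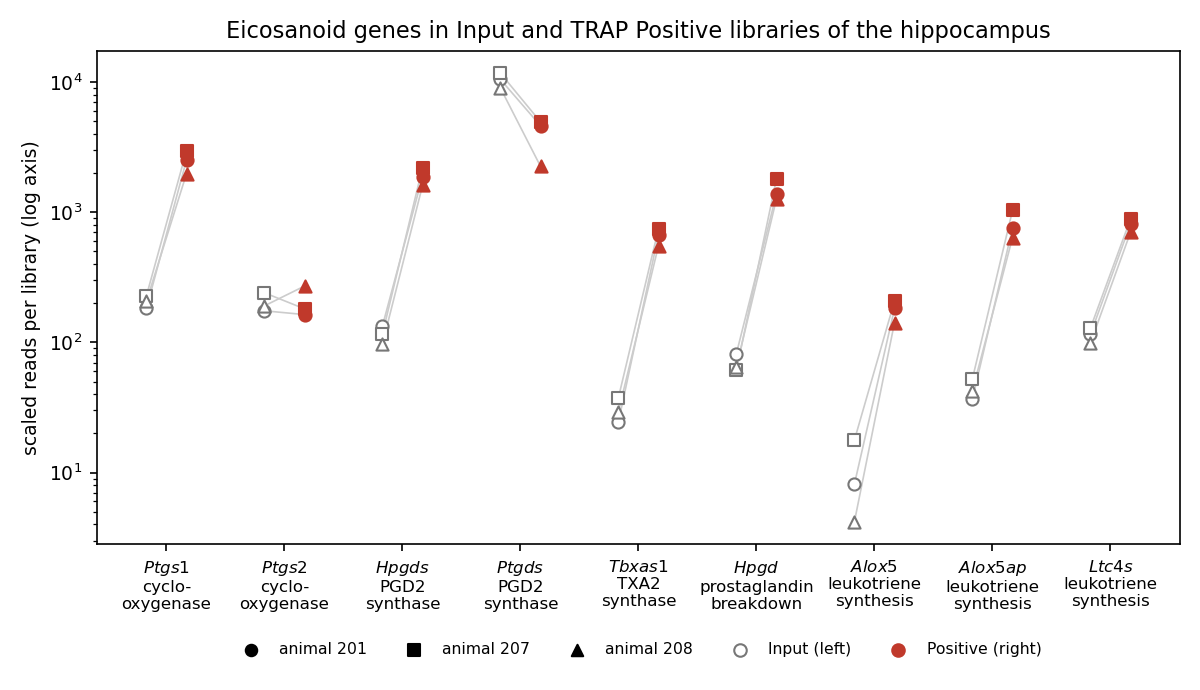
Scaled reads (log axis) of the 9 measured genes in each library, with open grey symbols for Input, filled red symbols for Positive, and a line joining both fractions of an animal. In 7 genes every line rises, in Ptgds every line falls, and in Ptgs2 only the line of animal 208 rises.

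Both prostaglandin D2 synthases were measured, and they moved in opposite directions. Hpgds (ENSMUSG00000029919, chr6:65117293-65144908, minus strand) codes for the hematopoietic, glutathione-dependent synthase of immune cells. It had 134, 116 and 97.0 scaled reads in Input and 1880.0, 2208 and 1607 in Positive. The log2 fold change was 4.04 ± 0.14, or 16.4-fold with a 95% interval of 13.2 to 20.4 (adjusted p = 3.46e-10). The 3 animals gave log2 values of 3.80, 4.24 and 4.04, so each showed the difference.

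Ptgds (ENSMUSG00000015090, chr2:25466709-25470046, minus strand) codes for the lipocalin-type synthase, a secreted protein known from the leptomeninges, the choroid plexus and oligodendrocytes. It had 10491, 11714 and 9019.7 scaled reads in Input and 4622, 4945 and 2253 in Positive. Animal 208 was the lowest in both fractions. The log2 fold change was -1.40 ± 0.22, with a 95% interval of -1.87 to -0.93 (adjusted p = 1.98e-04). Only 1.84% of the genes tested had a lower fold change. Per animal the log2 value was -1.18, -1.24 and -2.00.

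Marker genes of the cells that make the lipocalin-type synthase were lower as well. All 8 oligodendrocyte markers were called lower (median log2 fold change -2.58, for example Mbp at -1.74), as were all 8 choroid plexus markers (median -1.85, for example Ttr at -2.21) and 7 of 8 leptomeningeal markers (median -0.85, for example Igfbp2 at -1.66). The summed scaled reads of these lists went from 49558-56396 to 11185-14725 for oligodendrocytes, from 28646-38386 to 7122-8680.4 for choroid plexus and from 3618-4305 to 1262-1992 for leptomeninges. In animal 208, where Ptgds fell the most, the list medians were -2.78, -2.31 and -1.34, below the -2.51, -1.76 and -0.68 of animal 201 and the -2.38, -1.56 and -0.78 of animal 207. Other lists were lowest in animal 208 too, with endothelial medians of 1.17 against 2.19 and 2.23, microglial medians of 4.42 against 4.55 and 4.88, and border macrophage medians of 3.59 against 3.75 and 4.45. The part of each cell type in the Ptgds values was not tested. Both fractions of an animal came from the same homogenate, so lower values in Positive do not mean fewer cells of a type.

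**Figure D3:**
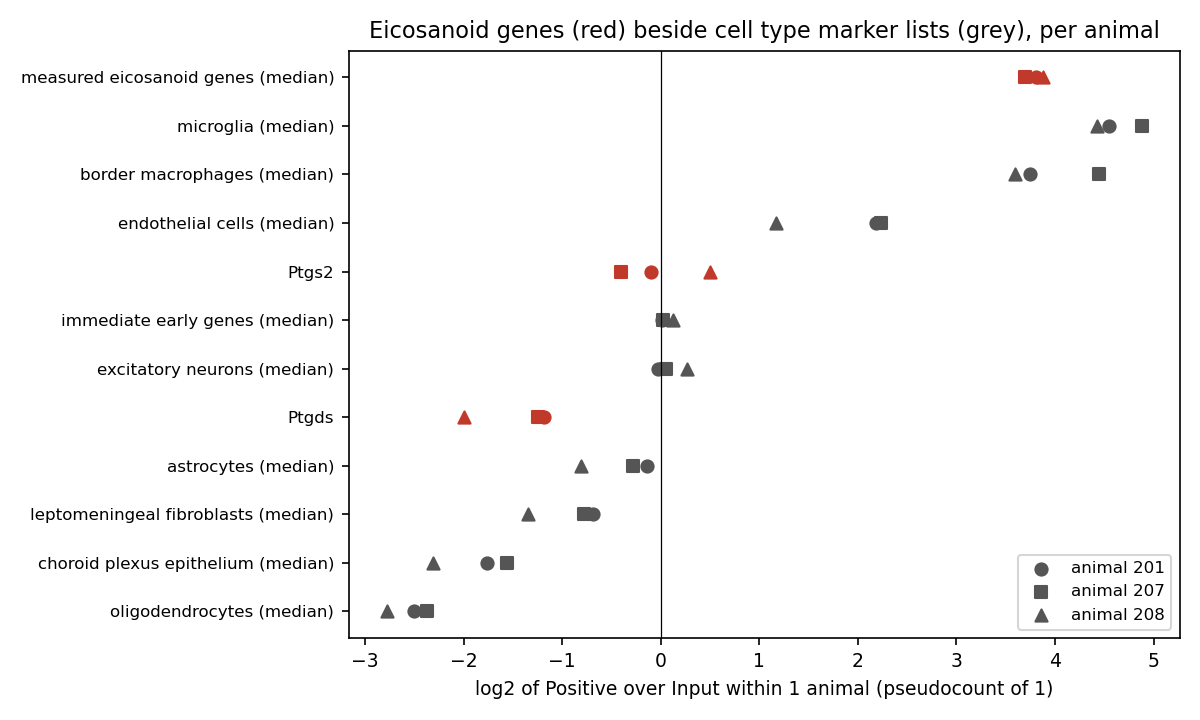
Log2 of Positive over Input within each animal (pseudocount of 1) for Ptgs2, Ptgds and the median of the 9 measured eicosanoid genes (red) and for the medians of marker gene lists (grey). Ptgds and the lists of oligodendrocytes, choroid plexus, leptomeninges, astrocytes, endothelial cells, microglia and border macrophages were lowest in animal 208. Ptgs2 and the lists of immediate early genes and excitatory neurons were highest in that animal.

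Within a library, the log2 ratio of Hpgds to Ptgds reads was -6.29, -6.66 and -6.54 in Input and -1.30, -1.16 and -0.49 in Positive, a difference of 5.51 (exact two-sided permutation p = 0.1, the smallest possible, adjusted p = 0.133). Per kilobase of exon, Hpgds was 0.254 to 0.326% of the sum of both synthases in Input and 9.45%, 10.3% and 15.5% in Positive.

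Tbxas1 (ENSMUSG00000029925, chr6:38875404-39084585, plus strand) codes for thromboxane A synthase, which makes the vasoconstrictor and platelet activator thromboxane A2. It had 24.5, 37.6 and 29.4 scaled reads in Input and 675, 748 and 555 in Positive. The fractions were far apart in each animal. The log2 fold change was 4.42 ± 0.18, or 21.5-fold with a 95% interval of 16.3 to 28.3 (adjusted p = 9.33e-10). Platelets are a known source of this enzyme and of cyclooxygenase-1. Of 7 platelet genes listed, 4 had a row in the table, and they did not move together, with Gp9 (3.26 scaled reads on average in Input and 131 in Positive, tested through Positive alone) and Itgb3 (log2 fold change 2.86) called higher, Gp1bb (-0.57) called lower, and Itga2b, the alpha IIb integrin, at 35.5 scaled reads on average in Input and 32.4 in Positive. The part of platelets was not tested.

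Hpgd (ENSMUSG00000031613, chr8:56294585-56321043, plus strand) codes for 15-hydroxyprostaglandin dehydrogenase, which oxidizes prostaglandins and takes away most of their activity. It had 82.2, 61.1 and 65.0 scaled reads in Input and 1389, 1817 and 1275 in Positive. Its log2 fold change of 4.43 ± 0.16 was the largest of the 9 genes, 21.5-fold with a 95% interval of 16.8 to 27.5 (adjusted p = 4.28e-10), although that interval and the one of Tbxas1 overlap almost fully. So a gene of prostaglandin breakdown stood among the genes of synthesis at the upper end of the range. Over all genes tested, 114 had a larger fold change.

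The leukotriene branch was represented by Alox5, Alox5ap and Ltc4s, and all 3 were higher in Positive. Alox5 (ENSMUSG00000025701, chr6:116410077-116461178, minus strand) codes for 5-lipoxygenase, the enzyme that makes leukotriene A4. It had 8.16, 17.8 and 4.20 scaled reads in Input and 182, 208 and 142 in Positive. The Input libraries held only 8, 18.9 and 4 raw reads, which makes this the least certain fold change of the 7. The log2 fold change was 4.10 ± 0.34, or 17.1-fold with a 95% interval of 10.3 to 28.5 (adjusted p = 6.81e-07), and it ranged from 3.75 to 4.81 when single libraries were left out.

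Alox5ap (ENSMUSG00000060063, chr5:149264767-149288153, plus strand) codes for the 5-lipoxygenase activating protein, a membrane protein that presents arachidonic acid to the enzyme. It had 36.7, 52.6 and 42.5 scaled reads in Input and 756, 1035 and 639.7 in Positive. Animal 207 was the highest in both fractions. The log2 fold change was 4.20 ± 0.21, or 18.4-fold with a 95% interval of 13.5 to 25.1 (adjusted p = 4.20e-09). The log2 ratio of Alox5ap to Alox5 reads within a library was 2.17, 1.57 and 3.34 in Input and 2.05, 2.31 and 2.17 in Positive. The difference of -0.18 was smaller than the spread of 0.90 (SD, n = 3) among the Input libraries (exact two-sided permutation p = 0.8, adjusted p = 0.8), and its sign turned to 0.31 without animal 208.

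Ltc4s (ENSMUSG00000020377, chr11:50236461-50238616, minus strand) codes for leukotriene C4 synthase, which joins leukotriene A4 to glutathione. It had 115, 129 and 98.9 scaled reads in Input and 815, 888 and 703 in Positive. Its log2 fold change of 2.81 ± 0.14, or 7.0-fold with a 95% interval of 5.70 to 8.60, was the smallest of the 7 (adjusted p = 3.98e-09). The animals were close to each other here, with log2 values of 2.81, 2.78 and 2.82. Lta4h, which codes for the competing enzyme leukotriene A4 hydrolase, was higher by only 0.45 ± 0.09 on the log2 scale (adjusted p = 0.00127). The log2 ratio of Ltc4s to Lta4h reads was -2.06, -1.90 and -2.26 in Input and 0.27, 0.47 and 0.12 in Positive, a difference of 2.36 that every animal showed (exact two-sided permutation p = 0.1, the smallest possible, adjusted p = 0.133). These ratios of reads carry the unequal exon lengths of both genes, and their change between the fractions does not depend on it. Per kilobase of exon, Ltc4s was above Lta4h in both fractions, at 113 against 78.4 scaled reads in Input and 791 against 107 in Positive. Mast cells and basophils also make leukotriene C4 synthase and the hematopoietic prostaglandin D2 synthase. None of the 8 genes listed for them had a row in the table, and they were not analysed here.

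**Figure D4:**
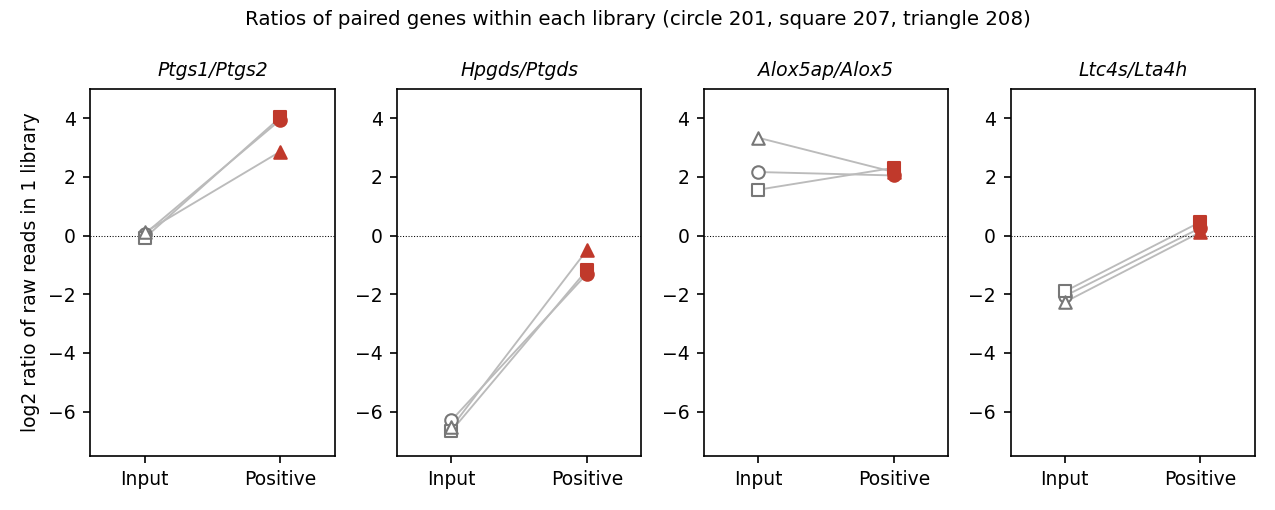
Log2 ratio of raw reads of paired genes within each library, with Input (open) and Positive (filled) of an animal joined by a line. The ratios of Ptgs1 to Ptgs2, Hpgds to Ptgds and Ltc4s to Lta4h rise in all 3 animals, and that of Alox5ap to Alox5 does not move 1 way.

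The order of the levels of different genes was taken per kilobase of exon, and neighbors in it were read as within their spread where their means differed by less than the sum of both SDs. In Input the order was Ptgds at 6312 ± 818 scaled reads per kilobase (SD, n = 3), Ltc4s at 113 ± 14.7, Ptgs1 at 52.9 ± 5.86, Ptgs2 at 44.1 ± 7.48, Hpgd at 41.3 ± 6.67, Alox5ap at 30.9 ± 5.67, Hpgds at 18.0 ± 2.85, Tbxas1 at 3.35 ± 0.73 and Alox5 at 2.45 ± 1.70. Ptgs1 and Ptgs2, Ptgs2 and Hpgd, Hpgd and Alox5ap, and Tbxas1 and Alox5 were within their spread. In Positive the order was Ptgds at 2389 ± 891, Hpgd at 888 ± 170, Ltc4s at 791 ± 92.3, Ptgs1 at 641 ± 128, Alox5ap at 571 ± 143, Hpgds at 295 ± 46.9, Tbxas1 at 72.5 ± 10.8, Ptgs2 at 44.8 ± 12.6 and Alox5 at 43.3 ± 8.10. Here Hpgd and Ltc4s, Ltc4s and Ptgs1, Ptgs1 and Alox5ap, and Ptgs2 and Alox5 were within their spread. Ptgs2 stood between Ptgs1 and Hpgd in Input and between Tbxas1 and Alox5 in Positive.

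The tagged cells were checked with their markers. All 10 microglial genes were called higher (median log2 fold change 4.69, for example Csf1r at 4.63), and their summed scaled reads went from 4428-4775 in Input to 86099-126765 in Positive. All 8 genes of border macrophages were called higher as well (median 4.08, for example Mrc1 at 4.19 and Stab1 at 3.80), with summed scaled reads of 522-588 in Input and 6064-11860.1 in Positive, although Pf4, Lyve1 and Ms4a7 of this list passed the filter through Positive alone. Of the 7 higher eicosanoid genes, Ltc4s at 2.81 lay below every gene of both lists, which ranged from 3.12 to 4.84 and from 3.16 to 4.48. The others, from 3.60 to 4.43, lay within both ranges. Microglia and border macrophages cannot be told apart as sources of these transcripts in this design. All 8 endothelial genes were also called higher, with a median of 1.94 (for example Flt1 at 2.00 and Vwf at 1.94), which is below each of the 7 genes. The astrocyte list had a median of -0.39, with 4 of 8 called lower (for example Aldoc at -0.16, no call, and Slc1a3 at -0.22, no call). The share called lower was 50%, beside 22% over all genes. The excitatory neuron list was not depleted, with a median of 0.09, 2 of 8 called higher (25%, beside 24% over all genes) and none lower. Its summed scaled reads were 105540-122893 in Input and 121307-149016 in Positive, so Positive also held much neuronal RNA. Of 8 monocyte and neutrophil genes, only Ly6c2 had a row, with 20.8-24.7 scaled reads in Positive and a log2 fold change of 1.61, tested through Positive alone. The part of endothelial cells, neurons and monocytes in the values was not tested.

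Beyond the 10 genes, a list of 84 further genes of the eicosanoid pathway was examined, of which 59 were tested. In this wider list 17 genes (28.8%) were called higher and 14 (23.7%) lower, beside 24% and 22% over all genes, and the median log2 fold change was 0.01. Pla2g2d, Pla2g4a, Cysltr1 and Cmklr1 were the 4 genes called higher and over 5-fold. Of the 17 higher genes, 4 (Pla2g2d, Pla2g4a, Cysltr1 and Alox12) passed the filter on low values through Positive alone, and of the 14 lower genes, 2 (Cyp2j12 and Cyp4f17) passed it through Input alone, so these calls and the counts that hold them were partly set by the filter.

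**Figure D5:**
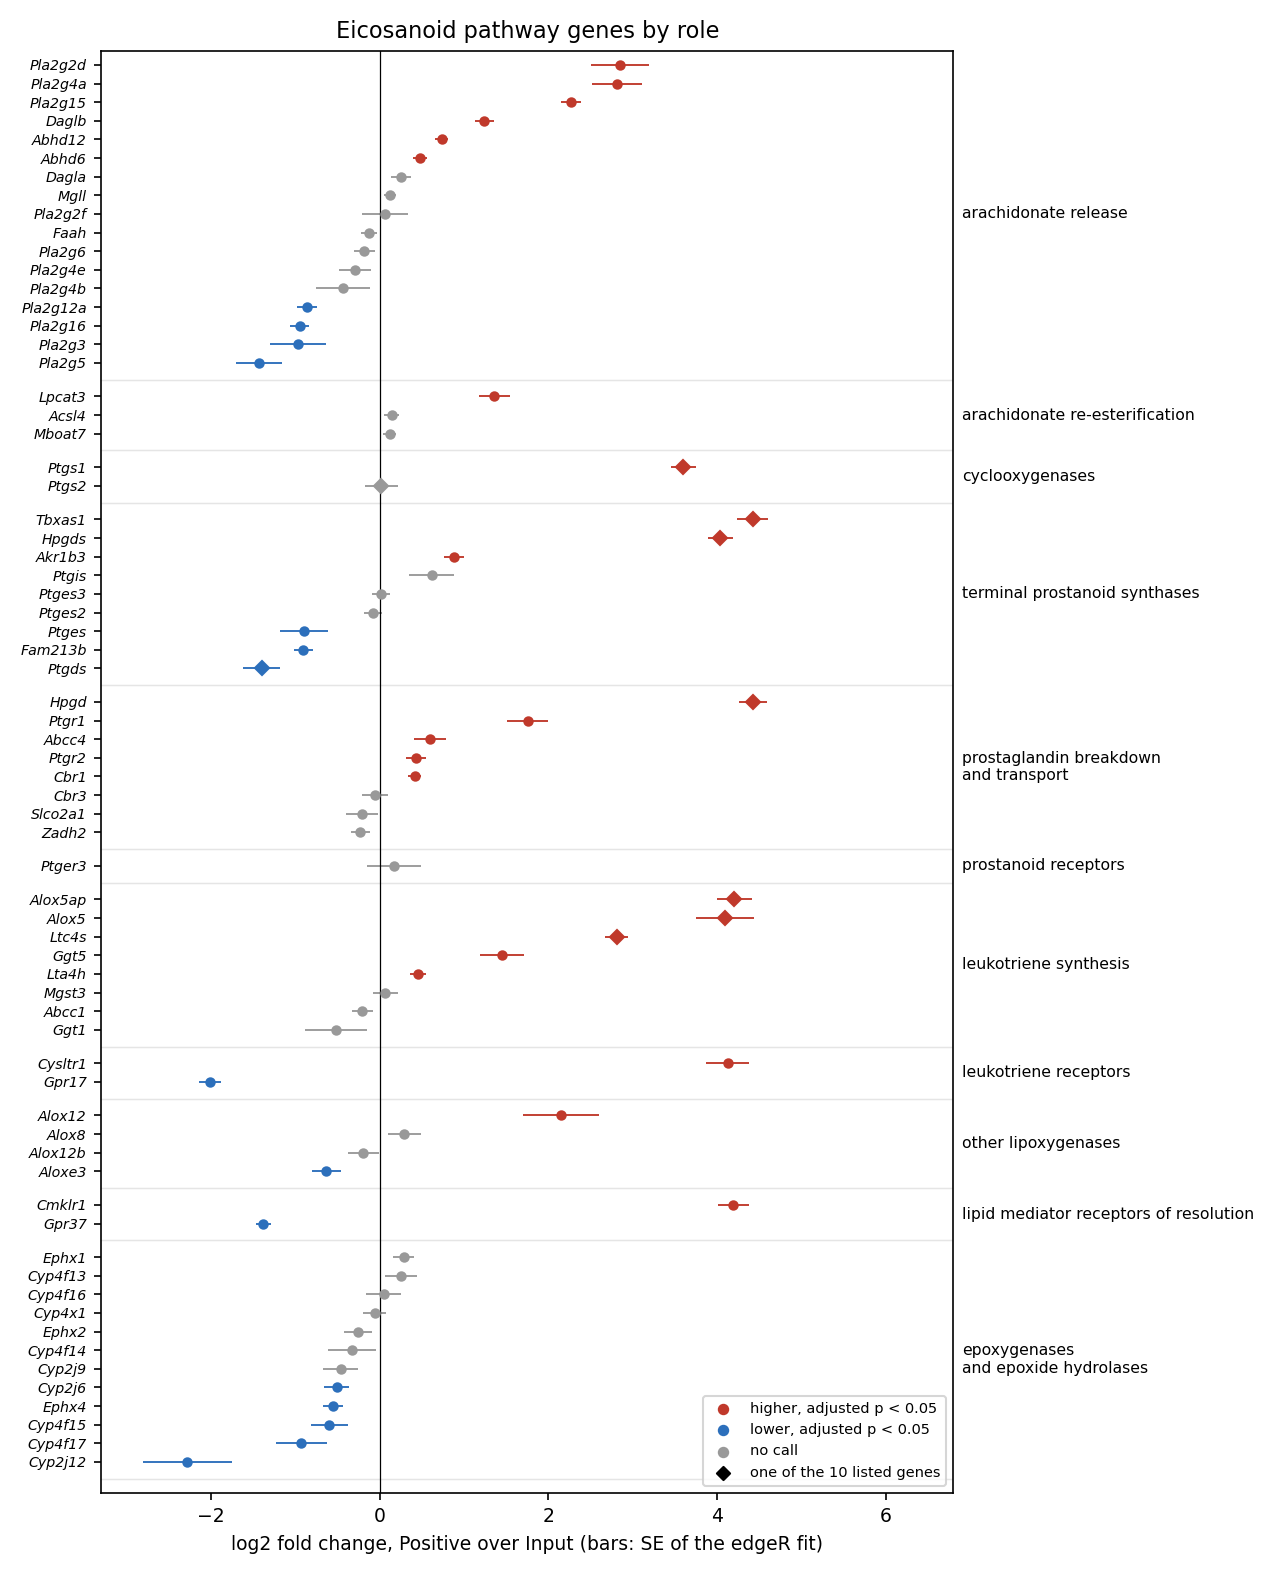
Log2 fold change of Positive over Input with its SE from the edgeR fit for all 68 pathway genes tested, grouped by role, with diamonds for the 9 measured eicosanoid genes and colors for the call. The large positive values stand in release, synthesis, breakdown, lipoxygenase and receptor groups beside genes near 0. The group listed as epoxygenases and epoxide hydrolases reaches no higher than 0.28.

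Upstream of the cyclooxygenases, 17 genes of arachidonate release were tested. Of these, 6 (35.3%) were called higher and 4 (23.5%) lower, beside 24% and 22% over all genes. Pla2g4a, which codes for cytosolic phospholipase A2 alpha, had 29.6, 41.3 and 14.7 scaled reads in Input and 216, 238 and 155 in Positive, a log2 fold change of 2.81 ± 0.29 (adjusted p = 5.79e-06). The secreted phospholipase gene Pla2g2d (2.85) and the lysosomal phospholipase gene Pla2g15 (2.26) were the other 2 highest. Pla2g5 (-1.43), Pla2g3 (-0.97) and Pla2g16 (-0.95), which also code for phospholipases, were the lowest, and the call of Pla2g3 was lost under several alternatives. Lpcat3, which codes for an enzyme that puts arachidonate back into phospholipids, was higher by 1.36 (adjusted p = 6.68e-05), the only gene called of 3 in that group.

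Among the 6 terminal prostanoid synthase genes outside the list, Akr1b3, an aldose reductase gene with prostaglandin F synthase activity, was called higher (0.88, adjusted p = 7.97e-05). Ptges, the inducible prostaglandin E synthase gene, was called lower (-0.90, adjusted p = 0.0216), with 78.5, 90.2 and 75.5 scaled reads in Input and 57.7, 49.3 and 24.3 in Positive, and so was Fam213b, which codes for a prostamide and prostaglandin F synthase (-0.90, adjusted p = 3.80e-05). The call of Ptges did not hold without the Input library of animal 207 (adjusted p = 0.0782) or without both libraries of animal 208 (adjusted p = 0.0600). Next to Hpgd in prostaglandin breakdown and transport, 4 of 7 genes were called higher and none lower by edgeR (0 at an unadjusted p under 0.05, and 0 by DESeq2 or limma). The share called higher was 57.1%, beside 24% over all genes. With total count scaling, edgeR called Zadh2, which codes for the reductase also named Ptgr3, lower in this group (-0.31, adjusted p = 0.0380). Ptgr1, which codes for a prostaglandin reductase, had the largest value (1.75 ± 0.25, adjusted p = 9.10e-05), followed by the efflux transporter gene Abcc4 (0.60) and Ptgr2 (0.43), and the calls of Abcc4 and Ptgr2 were lost under several alternatives.

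The receptors were mostly outside the table. Of 9 prostanoid receptor genes, only Ptger3, the EP3 receptor gene, had a row, with 71.4, 52.6 and 31.5 scaled reads in Input and 43.3, 79.3 and 51.8 in Positive, and the fractions overlapped (log2 fold change 0.17 ± 0.32, adjusted p = 0.694). Of 6 leukotriene receptor genes, 2 were tested, and they moved in opposite directions. Cysltr1, which codes for the CysLT1 receptor for cysteinyl leukotrienes, had 10.2, 15.0 and 8.39 scaled reads in Input and 207, 225 and 167 in Positive, a log2 fold change of 4.13 ± 0.26 (adjusted p = 3.84e-08), with a call partly set by the filter. Gpr17, a receptor gene known from oligodendrocyte precursors, had 514, 611 and 592 scaled reads in Input and 150.4, 153 and 123 in Positive (-2.01 ± 0.13, adjusted p = 7.18e-08). Of the receptors for lipid mediators of resolution, 2 of 5 were tested. Cmklr1, the gene of the chemerin receptor that is also described as a resolvin receptor, was higher by 4.19 ± 0.18 (adjusted p = 1.50e-09), and Gpr37 was lower (-1.38 ± 0.09, adjusted p = 5.17e-08).

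Ggt5, which codes for an enzyme that trims leukotriene C4 to leukotriene D4, was higher by 1.45 ± 0.26 (adjusted p = 6.42e-04). Among the other lipoxygenases, Alox12, the platelet-type 12-lipoxygenase gene, was called higher at low counts, with 10.2, 1.88 and 9.44 scaled reads in Input and 41.2, 27.9 and 26 in Positive (2.15 ± 0.45, adjusted p = 0.00176) and a call partly set by the filter, and Aloxe3 was called lower (-0.63, adjusted p = 0.00958), a call lost without the Input library of animal 201 (adjusted p = 0.0540). The group listed as epoxygenases and epoxide hydrolases held 12 tested genes of cytochrome P450 enzymes and epoxide hydrolases. By edgeR none was called higher (1 at an unadjusted p under 0.05, and 0 by DESeq2 or limma) and 5 were called lower. The share called lower was 41.7%, beside 22% over all genes. Cyp2j12 (-2.28), Cyp4f17 (-0.93) and Cyp4f15 (-0.60) were lowest, the last 2 with calls lost under several alternatives. In some alternatives edgeR called 2 genes of this group higher, Ephx1 with the animal as block (0.28, adjusted p = 0.0267), without the Input library of animal 201 (0.39, adjusted p = 0.0275) or without the Positive library of animal 208 (0.37, adjusted p = 0.0161), and Cyp4f13 without the Positive library (0.43, adjusted p = 0.0345) or both libraries of animal 208 (0.50, adjusted p = 0.0434).

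The libraries held between 14879734 and 17757918 reads in genes. Exons of Ptgs1, Tbxas1, Alox5ap and Ltc4s overlap exons of genes on the other strand by 148, 144, 189 and 268 bases, and the reads were assigned with regard to strand.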

How the data were processed

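RNA was sequenced from Input and Positive TRAP fractions of 3 animals (6 libraries). Per the methods, the authors made strand-specific poly(A) libraries, aligned paired-end reads to mm10 in Strand NGS, filtered genes on raw reads and normalized them with DESeq. The deposited table holds expected counts (estimated reads per gene, not whole in most values) and the authors' normalized log2 values, which are centered on the Input median of each gene. The steps from here on were made for this report.

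The deposited raw values were rounded, scaled by relative log expression and tested with edgeR 4.0.16 in R 4.3.3 (quasi-likelihood F test, no animal term) over 15343 genes (those above 20 scaled reads throughout Input, throughout Positive or both), leaving out 45. P-values were adjusted by Benjamini-Hochberg with a threshold of 0.05. The SE is the log2 fold change divided by the root of the F statistic, and 95% intervals use its degrees of freedom. Values per animal use a pseudocount of 1. Ratios of 2 genes within a library used raw values with no pseudocount and an exact permutation test without the pairing by animal. The 4 ratios were adjusted together. The script was tested on simulated data. Exon lengths came from GENCODE M21 and promoters from RefSeq, both on GRCm38.p6, the files' build. Whether the values count reads or pairs is not given in the sources used here. Of the small whole values, between 64.7% and 69.3% were even in each library, and the reason was not tested. The values were therefore also halved.

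The members and gene lists were chosen with earlier results of these data known. Named were all members, all tested prostanoid and leukotriene receptors, up to 3 called genes in each direction of every other pathway group, and up to 2 markers per list by mean level; Fos, Arc, Egr1, the platelet genes and Ly6c2 were named for the result beside them after their values were seen. Same-numbered libraries come from 1 animal by the labels, so they pair; deviations from the fraction means correlated by 0.19, 0.06 and 0.12 within animals 201, 207 and 208. Alternatives were total count and TMM scaling, other filters, DESeq2, limma on the deposited log2 values, the animal as block, other pseudocounts, and leaving out libraries. Without the animal as block, the edgeR p-values set the difference between the fractions against the spread of libraries within a fraction. That spread was estimated with the help of all genes tested, and all libraries came from these 3 animals. The unbound fraction was not analysed here.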

Additional observations from a re-analysis of the deposited data

How the results depend on the processing

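Each of the 8 genes called among the members kept its call and direction under every one of the 15 alternatives in which it was tested. Alox5 dropped out of the test with a filter at a mean of 100 scaled reads, which left 6 members higher. With the animal as replicate block, 7 members were higher and 1 lower as without it, and the further pathway genes gave 19 higher and 15 lower. The block brought Dagla (0.24, adjusted p = 0.0314), Ephx1 (0.28, adjusted p = 0.0267) and Cyp2j9 (-0.50, adjusted p = 0.0153) past the threshold and changed no other call. The filter at a mean of 100 scaled reads left 12125 genes tested and 9 further pathway genes lower in place of 14.

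Total count scaling moved the share of higher genes among all calls from 52.2% to 41.6% and the median log2 fold change of all genes from -0.01 to -0.09. Under it Ptgs2 was at -0.0601, Pla2g2f at -0.0158, Cyp4f16 at -0.0284, Mgst3 at -0.0118 and Ptges3 at -0.0633, each without a call, and Zadh2 (-0.305, adjusted p = 0.0380) and Cyp2j9 (-0.541, adjusted p = 0.0485) gained a call, which made 16 further pathway genes lower. Limma gave -0.0175 for Ptgs2. The mean over animals of the Ptgs2 log2 value was -6.90e-05 with a pseudocount of 0.1 and -0.0768 with total count scaling. The change of the Alox5ap to Alox5 ratio was 0.36 with a pseudocount of 5 and ranged from -0.64 to 0.31 when an animal was left out.

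Leaving out 1 library gave ranges of -0.229 to 0.164 for Ptgs2, -0.0918 to 0.290 for Pla2g2f, -0.0830 to 0.0989 for Ptges3, -0.0460 to 0.190 for Cyp4f16, -0.119 to 0.0242 for Cyp4x1, -0.0588 to 0.286 for Mgst3, -0.169 to 0.0123 for Cbr3 and -0.125 to 0.464 for Ptger3, all without a call. Without both libraries of animal 208, Ptgs2 was at -0.268, Mgst3 at -0.0566, Cbr3 at 0.0133 and Ptger3 at -0.00632. Among the 59 further pathway genes, 36 kept their call and direction under all alternatives. Calls were gained in some alternative for Cyp2j9, Cyp4f13, Dagla, Ephx1, Ephx2, Faah, Ptgis and Zadh2 and lost for Pla2g3, Cyp4f15, Cyp4f17, Cyp2j6, Abcc4, Ptgr2, Ptges and Aloxe3. The cause of these changes was not tested. Low reads limit Alox5, Pla2g2d, Pla2g4a, Cysltr1, Alox12, Cyp2j12 and Cyp4f17, and 3 animals limit every interval.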
